A study of Homo sapiens with 6 samples.

Results

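The genes described here are 9 genes of prostaglandin E2 synthesis, sensing and breakdown: PLA2G4A, PTGS1, PTGS2, PTGES, PTGES2, PTGES3, PTGER2, PTGER4 and HPGD. They were taken by their symbols, and all 9 were found among the 19973 genes of the deposited table of read counts and FPKM (fragments scaled to the deposited length of each gene and library total). The libraries are labelled OVCAR3, a line derived from a human ovarian carcinoma, and there were 3 libraries in each of 2 groups. One group carried a control short hairpin (shNC) and the other a hairpin against NUF2 (shNUF2), a subunit of the NDC80 complex that links kinetochores to spindle microtubules. Both groups shared the vector, in which the U6 promoter drives the hairpin beside a puromycin resistance gene, and both had been put through puromycin to obtain stable lines. The sources used here do not say whether the lines were clones or whether the 3 libraries of a group came from separate cultures, so the p-values measure only the spread between these libraries.

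Library totals were 14115009 to 16995452 reads in shNC and 13057534 to 15227460 reads in shNUF2. NUF2 itself had 903, 1096 and 1092 reads in the shNC libraries against 281, 290 and 384 in the shNUF2 libraries, a log2 fold change of -1.51 (SE 0.08). Of 10 markers of ovarian carcinoma epithelium, 6 reached 1 FPKM in shNC and 5 in shNUF2. The keratins KRT7, KRT8 and KRT18 were well above it, at 169, 49.5 and 35.3 FPKM in shNC and 142, 99.2 and 50.4 FPKM in shNUF2. PAX8, EPCAM and MUC16 lay near it, at 1.39, 1.41 and 1.12 FPKM in shNC and 2.11, 2.21 and 0.651 FPKM in shNUF2. WT1, KRT19, CDH1 and SOX17 stayed below 1 FPKM in both groups. The labelled line thus showed its lineage markers only in part, and the identity of the line was not tested. The 10 summed to 1112 to 1242 CPM (counts scaled to library size) in shNC and 1431 to 1543 CPM in shNUF2. At an edgeR adjusted p below 0.05, 4 of the 7 tested rose and 2 fell, against 33.9% and 33.8% of all tested genes. KRT8, a DEG as defined below, went from 337 to 692 CPM. KRT18 rose from 107 to 157 CPM (edgeR adjusted p = 1.02e-10). PAX8 and EPCAM also rose, from 10.1 to 15.7 CPM and from 3.39 to 5.45 CPM (edgeR adjusted p = 4.42e-05 and 0.00834). MUC16 fell from 48.6 to 28.9 CPM (edgeR adjusted p = 1.90e-08) and KRT7 fell from 668 to 574 CPM (edgeR adjusted p = 0.00174). None of 6 leukocyte markers and none of 4 endothelial markers reached 1 FPKM in either group. Their summed levels were nevertheless higher in shNUF2, at 1.93 to 2.92 against 0.563 to 1.22 CPM for leukocytes and 3.41 to 5.001 against 1.75 to 3.38 CPM for endothelium. Within these sums CDH5 went from 0.122 to 1.46 CPM, PTPRC from 0.0209 to 0.563 CPM and CD14 from 0.0820 to 0.645 CPM, while PECAM1, the most abundant endothelial marker, had 2.53 and 2.50 CPM (edgeR adjusted p = 0.966). Among 6 fibroblast markers COL1A1 alone reached 1 FPKM, PDGFRA was at 0 reads in every library, and the sum was 84.0 to 90.5 CPM in shNC against 68.6 to 75.2 CPM in shNUF2. The members moved in opposite directions, with COL1A1 falling from 81.7 to 62.4 CPM (edgeR adjusted p = 1.23e-06) and DCN rising from 3.66 to 8.48 CPM (edgeR adjusted p = 7.00e-06). The part of these marker levels in the values below was not tested, and in such bulk libraries fewer cells with a transcript and less of it per cell cannot be told apart.

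Prostaglandin E2 is made in 3 steps. A phospholipase frees arachidonic acid from membranes, a cyclooxygenase turns it into prostaglandin H2, and a prostaglandin E synthase converts that into prostaglandin E2. The product leaves the cell and acts on G protein-coupled receptors, among which EP2 and EP4 raise cyclic AMP, and it is inactivated by a dehydrogenase. In epithelial tumours, the ovary included, the inducible cyclooxygenase has been studied for its links to growth, inflammation and angiogenesis. The libraries measure RNA only, and neither enzyme activity nor prostaglandin was measured in them.

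The sequences just before the start sites of 4 of these genes are given first: both cyclooxygenase genes, PTGER4 as the tested gene with the largest fold change in the edgeR fit, and PTGES as the synthase with the largest decrease. Each line holds the 250 bases before the annotated start in RefSeq, assembly GRCh38.p14, read 5′ to 3′ along the gene's strand, and capitals mark a match to a searched motif.
PTGS2: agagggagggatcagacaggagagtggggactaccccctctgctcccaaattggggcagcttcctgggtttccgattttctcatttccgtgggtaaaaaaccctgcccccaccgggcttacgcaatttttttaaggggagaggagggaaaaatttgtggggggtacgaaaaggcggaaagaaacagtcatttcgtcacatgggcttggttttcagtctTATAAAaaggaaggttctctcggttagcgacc
PTGS1: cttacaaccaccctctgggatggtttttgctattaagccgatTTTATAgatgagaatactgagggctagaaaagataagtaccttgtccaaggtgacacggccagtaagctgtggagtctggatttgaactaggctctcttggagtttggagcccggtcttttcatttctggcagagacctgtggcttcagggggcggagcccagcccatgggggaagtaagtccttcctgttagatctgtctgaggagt
PTGER4: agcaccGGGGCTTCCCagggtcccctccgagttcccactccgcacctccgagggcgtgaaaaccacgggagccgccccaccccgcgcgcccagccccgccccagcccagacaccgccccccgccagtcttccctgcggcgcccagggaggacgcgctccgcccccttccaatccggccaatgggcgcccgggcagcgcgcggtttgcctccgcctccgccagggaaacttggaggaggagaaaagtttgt
PTGES: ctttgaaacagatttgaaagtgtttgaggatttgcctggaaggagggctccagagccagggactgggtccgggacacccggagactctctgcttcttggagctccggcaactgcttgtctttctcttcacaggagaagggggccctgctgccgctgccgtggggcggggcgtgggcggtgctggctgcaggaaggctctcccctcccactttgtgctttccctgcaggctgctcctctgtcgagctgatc
These stretches lie at chr1:186680424-186680673 on the minus strand for PTGS2, chr9:122370283-122370532 on the plus strand for PTGS1, chr5:40679665-40679914 on the plus strand for PTGER4 and chr9:129753043-129753292 on the minus strand for PTGES. RefSeq held a window for all 9 genes, with more than 1 for PTGS1, PTGES2 and HPGD.

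In windows running from 250 bases before to 50 bases after the start, 5 motifs were searched on both strands. They were TATAAA (the TATA box), TGACGT (the core of the cyclic AMP response element), TGACTCA (the AP-1 site), CACGTG (the E-box of MYC and USF) and the NF-kB consensus by its name. PTGS2 held TATAAA 32 to 27 bases before its start, a motif present in 11.5% of all 35116 windows. Of the 2 PTGS1 windows, the one printed held the same motif on the opposite strand, so it prints as TTTATA, from position -208 to -203, and the other held no match. PTGER4 held a match to the NF-kB consensus from -244 to -235, as did 5.91% of all windows. CACGTG occurred in 1 of the PTGES2 windows and 1 of the HPGD windows (7.26% of all windows), and neither TGACGT (7.98%) nor TGACTCA (4.95%) was found in any window of the 9 genes. A match describes letters only, and is not a binding site.

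Levels in shNUF2 were higher for both cyclooxygenases, the phospholipase, PTGER4 and HPGD, and lower for PTGES and PTGES2. Differences were tested by edgeR's quasi-likelihood test over 12874 genes with enough reads, with Benjamini-Hochberg adjustment over all of them. Of the 9 genes 8 could be tested, and PTGER2 had too few reads. At an adjusted p below 0.05, 5 of the 8 rose in shNUF2 (PLA2G4A, PTGS1, PTGS2, PTGER4 and HPGD), where 33.9% of all tested genes rose. PTGES and PTGES2 fell, 2 of the 8, where 33.8% of all tested genes fell, and PTGES3 did not pass. Together 7 of the 8 passed, where 67.6% of all tested genes passed in either direction, and nothing particular to the set is read from that share. A differentially expressed gene (DEG) was taken as one with a log2 fold change beyond 1 or -1 and an unadjusted p below 0.05. The study's methods give these thresholds for the fold change without naming the scale, and they were read here as log2. By this rule 4 genes were DEGs with higher levels in shNUF2 (PTGS1, PTGS2, PTGER4 and HPGD), against 9.41% of all tested genes. In the lower direction 0 were DEGs in the edgeR fit and 0 in a DESeq2 fit, against 4.16% of all tested genes, although 2 had an unadjusted p below 0.05. All 3 shNUF2 values lay above all 3 shNC values for 5 of the 8 tested genes and below them for 2, while 35.2% and 35.4% of all tested genes were separated in these directions. The median log2 fold change of the 8 was 0.80, and that of all tested genes was -0.01.

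**Figure D1:**
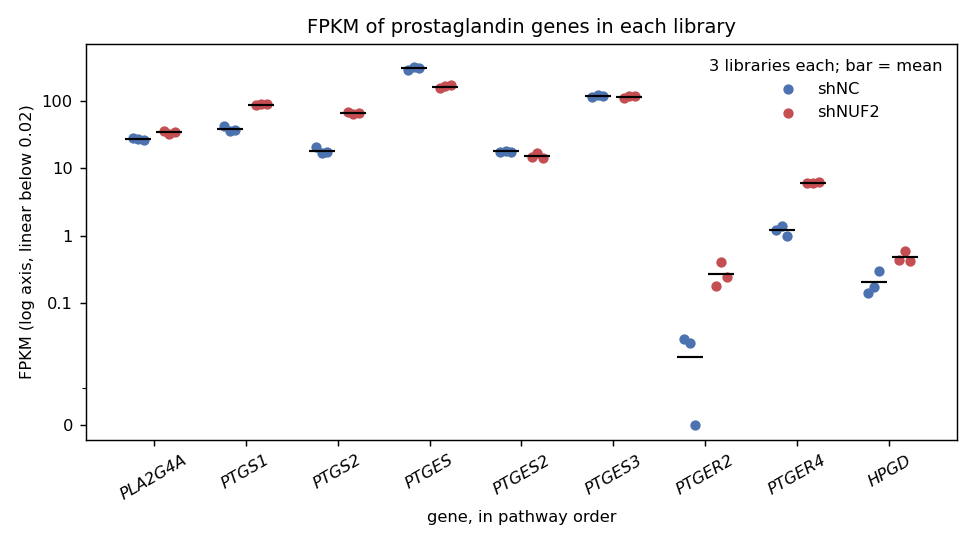
Level of each of the 9 genes in each library, in FPKM on a log axis that is linear near 0, with a bar at the mean of each group of 3 libraries. PTGS1, PTGS2, PTGER4 and HPGD sit higher in every shNUF2 library than in any shNC library, PTGES sits lower, and the PTGES3 points overlap.

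PTGS2 encodes cyclooxygenase-2, the inducible cyclooxygenase, and among the tested genes of the set only PTGER4 had a larger fold change in the edgeR fit. It (ENSG00000073756, chr1:186671791-186680423, minus strand, GRCh38) had 1538, 1386 and 1543 reads in shNC and 4908, 4470 and 5388 in shNUF2. Every shNUF2 library was thus well above every shNC library. The level rose from 94.9 ± 11.6 to 355 ± 10.4 CPM (mean ± SD, n = 3), a log2 fold change of 1.91 (SE 0.06, edgeR adjusted p = 4.29e-20), or 3.75-fold. Among all tested genes 3.15% had a larger log2 fold change.

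PTGS1 encodes cyclooxygenase-1, the form most cells make constitutively, and it rose as well. It (ENSG00000095303, chr9:122370530-122395703, plus strand) had 3409, 3284 and 3622 reads in shNC against 6830, 6706 and 7880 in shNUF2. The groups were apart, at 219 ± 18.5 and 516 ± 8.62 CPM (n = 3), with a log2 fold change of 1.24 (SE 0.05, edgeR adjusted p = 9.46e-18), or 2.36-fold.

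PTGS2 rose more than PTGS1 within the same libraries, by a measure that library scaling cannot move. There were 0.451, 0.422 and 0.426 PTGS2 reads per PTGS1 read in the shNC libraries and 0.719, 0.667 and 0.684 in the shNUF2 libraries, so the groups did not overlap. On the log2 scale the ratio went from -1.21 ± 0.05 to -0.54 ± 0.06 (SD, n = 3), a difference of 0.67 that was higher in 3 of 3 shNUF2 libraries. A two-sided exact permutation test gave p = 0.10, the smallest that 3 against 3 libraries allow, and 0.15 after Benjamini-Hochberg adjustment over the 3 ratios computed. Per length, PTGS1 remained the more abundant cyclooxygenase RNA in both groups. PTGS2 made up 33.1%, 31.7% and 31.9% of the summed FPKM of the pair in shNC, and 44.1%, 42.3% and 42.9% in shNUF2.

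PLA2G4A, the cytosolic phospholipase A2 that releases arachidonic acid, rose by a smaller amount. It (ENSG00000116711, chr1:186828949-186988981, plus strand) had 1132, 1231 and 1299 reads in shNC and 1433, 1222 and 1490 in shNUF2. The raw reads overlapped between groups, but after scaling for depth the levels did not, at 77.4 ± 2.08 and 99.8 ± 6.18 CPM (n = 3). The log2 fold change was 0.37 (SE 0.05, edgeR adjusted p = 1.32e-06). PLA2G4A and PTGS2 are neighbours on chromosome 1, with their nearest ends 148526 positions apart and 0 other genes of the table in that interval.

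The 3 prostaglandin E synthases did not follow the cyclooxygenases. PTGES encodes the microsomal, inducible synthase that is often coupled to cyclooxygenase-2, and it fell. It (ENSG00000148344, chr9:129738331-129753042, minus strand) had 7798, 9388 and 9746 reads in shNC and 4003, 4083 and 4890 in shNUF2, with no overlap. The level was 568 ± 19.5 CPM in shNC and 312 ± 14.2 CPM in shNUF2 (n = 3), a log2 fold change of -0.86 (SE 0.04, edgeR adjusted p = 2.04e-15). This 1.82-fold decrease did not reach the DEG threshold.

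PTGES2, a second membrane-associated synthase, fell slightly. It (ENSG00000148334, chr9:128120693-128128462, minus strand) had 1511, 1718 and 1828 reads in shNC and 1224, 1321 and 1305 in shNUF2, or 107 ± 0.711 against 93.1 ± 7.69 CPM (n = 3). The log2 fold change was -0.20 (SE 0.05, edgeR adjusted p = 0.00229). PTGES3, the cytosolic synthase also known as the HSP90 co-chaperone p23, had 5435, 6632 and 6812 reads in shNC and 5208, 5191 and 6197 in shNUF2 (ENSG00000110958, chr12:56663341-56688408, minus strand). Its levels of 398 ± 16.4 and 399 ± 12.8 CPM overlapped, with a log2 fold change of 0.01 (SE 0.04, edgeR adjusted p = 0.917) whose sign turned under other scalings. The GENCODE 29 annotation lists 5 processed pseudogenes of PTGES3, with which its reads could be shared.

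PTGES fell more than PTGES2 in the same libraries. PTGES had 5.16, 5.46 and 5.33 reads per PTGES2 read in shNC and 3.27, 3.09 and 3.75 in shNUF2, which left the groups apart. The log2 ratio was 2.41 ± 0.04 in shNC and 1.75 ± 0.14 in shNUF2 (SD, n = 3), a difference of -0.66 that was lower in 3 of 3 shNUF2 libraries. The two-sided exact permutation test again gave its smallest p of 0.10, and 0.15 after adjustment.

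**Figure D2:**
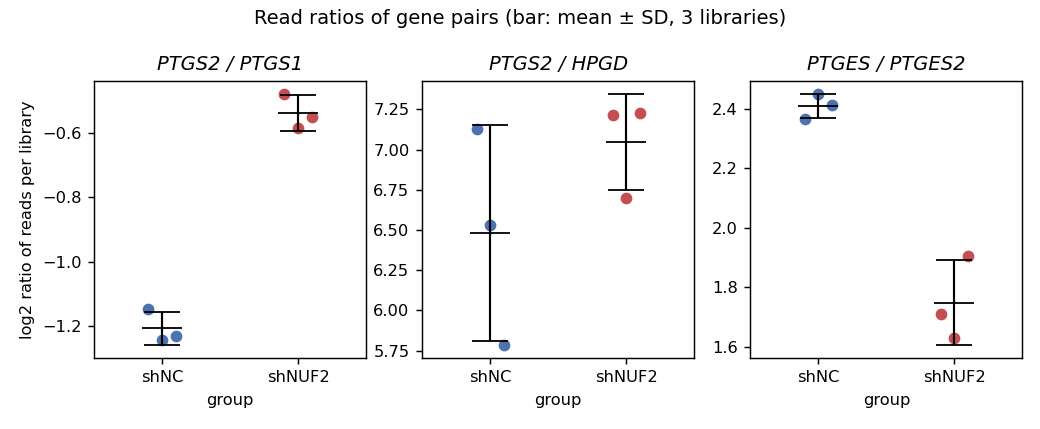
Reads of 1 gene per read of another in each library, on a log2 axis, with group means and SD (n = 3 libraries per group). PTGS2 per PTGS1 is higher and PTGES per PTGES2 lower in all shNUF2 libraries, while PTGS2 per HPGD overlaps between the groups.

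Both receptor genes had more reads in shNUF2, from low levels. PTGER4 encodes EP4 and had the largest fold change of the tested genes in the set in the edgeR fit. It (ENSG00000171522, chr5:40679915-40693735, plus strand) had 60, 77 and 60 reads in shNC and 292, 284 and 334 in shNUF2, so the groups were far apart. The level rose from 4.18 ± 0.666 to 21.9 ± 0.276 CPM (n = 3), a log2 fold change of 2.39 (SE 0.14, edgeR adjusted p = 2.05e-14), or 5.26-fold, and 1.89% of all tested genes had a larger one. On log2(FPKM + 1), which compresses low levels, limma gave 1.70 for PTGER4 and 1.82 for PTGS2, so their order turned. PTGER4 lies within the span of TTC33 on the opposite strand. TTC33 had 77.4 ± 2.98 CPM in shNC and 90.8 ± 7.93 CPM in shNUF2 (n = 3), a log2 fold change of 0.23 (SE 0.06, edgeR adjusted p = 0.00122). The strand setting used for counting was not given in the sources used here, so the share of TTC33 reads in the PTGER4 count was not tested. GENCODE 29 also lists 2 processed pseudogenes of PTGER4.

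PTGER2, which encodes EP2 (ENSG00000125384, chr14:52314305-52328598, plus strand), had 1, 1 and 0 reads in shNC and 6, 13 and 9 in shNUF2. All shNUF2 libraries exceeded all shNC libraries, but the counts were too low for the test. The summed 28 against 2 reads, scaled for depth, gave a ratio of 16.0 with an exact 95% interval of 4.03 to 138 that covers counting error only. On the log2 scale this ratio was 3.999, and with 1 library left out it ran from 3.35 (without shNC replicate 3) to 4.48 (without shNC replicate 1). At 0.0182 ± 0.0158 FPKM in shNC and 0.273 ± 0.117 FPKM in shNUF2 (n = 3), PTGER2 was the least abundant of the 9 genes in both groups.

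HPGD, the dehydrogenase that inactivates prostaglandin E2, also rose, at few reads. It (ENSG00000164120, chr4:174490175-174523154, minus strand) had 11, 15 and 28 reads in shNC and 33, 43 and 36 in shNUF2. The groups did not overlap but the highest shNC library came close to the lowest shNUF2 library. The level was 1.11 ± 0.453 CPM in shNC and 2.72 ± 0.513 CPM in shNUF2 (n = 3), with a log2 fold change of 1.25 and a wide error (SE 0.33, edgeR adjusted p = 0.00158). On log2(FPKM + 1), a scale that compresses low levels, limma gave a log2 fold change of 0.30 (adjusted p = 0.00449), and on log2(FPKM + 0.1) it gave 0.97 (adjusted p = 0.00441), both below the DEG threshold.

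PTGS2 was also set against HPGD, the first as a step of synthesis and the second as a step of breakdown. There were 140, 92.4 and 55.1 PTGS2 reads per HPGD read in shNC and 149, 104 and 150 in shNUF2, which overlapped. The log2 ratio was 6.48 ± 0.67 and 7.05 ± 0.30 (SD, n = 3), a difference of 0.57 with a two-sided exact permutation p of 0.20, and 0.20 after adjustment. Leaving out 1 library at a time moved this difference between 0.22 (without shNC replicate 3) and 0.89 (without shNC replicate 1). A ratio of PTGER4 to PTGER2 was not computed because PTGER2 had fewer than 10 reads in some libraries.

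**Figure D3:**
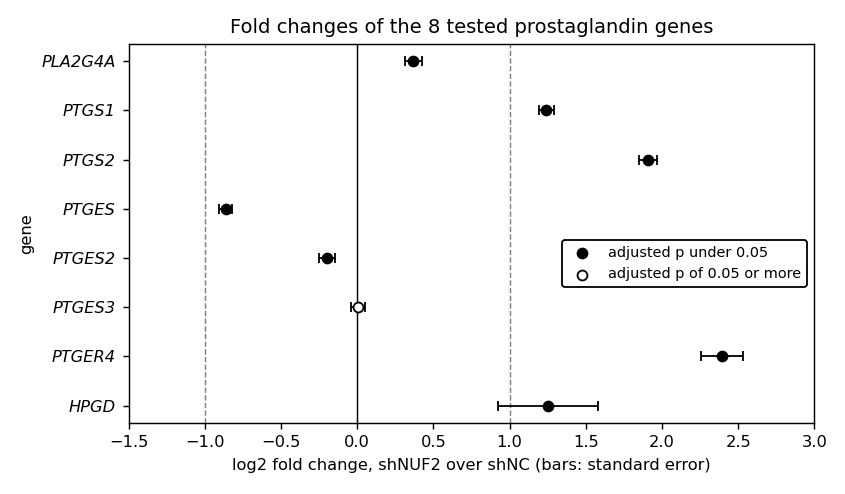
Log2 fold change of shNUF2 over shNC for the 8 tested genes, with bars of 1 SE from the edgeR fit, filled points for an adjusted p below 0.05 and dashed lines at the DEG thresholds of -1 and 1. PTGER4, PTGS2, HPGD and PTGS1 lie beyond 1, with the longest error bar at HPGD, and PTGES lies between -1 and 0.

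Levels of different genes are compared here in deposited FPKM, which divide by the deposited length of each gene and by library total. The order between genes rests on those lengths, and no other lengths were tried. In shNC the order from highest to lowest was PTGES at 304 ± 12.0, PTGES3 at 118 ± 5.50, PTGS1 at 38.3 ± 3.05, PLA2G4A at 27.2 ± 0.654, PTGS2 at 18.2 ± 2.14, PTGES2 at 17.8 ± 0.203, PTGER4 at 1.19 ± 0.194, HPGD at 0.204 ± 0.0830 and then PTGER2 (mean FPKM ± SD, n = 3). PTGS2 and PTGES2 overlapped, and all other neighbours in this order were apart in every library. PTGES was the 62nd most abundant of the 19973 genes in shNC. In shNUF2 PTGES still came first at 163 ± 8.48 FPKM, ahead of PTGES3 at 116 ± 4.43 FPKM and PTGS1 at 87.9 ± 2.07 FPKM. PTGS2, at 66.6 ± 1.38 FPKM, now stood above PLA2G4A at 34.2 ± 1.79 FPKM and PTGES2 at 15.1 ± 1.35 FPKM, and no neighbours overlapped. PTGER4 at 6.10 ± 0.114 FPKM and HPGD at 0.485 ± 0.0956 FPKM stayed near the bottom.

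The rest of the eicosanoid pathway was followed through 39 further genes, of which 23 could be tested. At an adjusted p below 0.05, 6 were higher, 6 were lower and 11 did not pass, where 33.9% and 33.8% of all tested genes were higher and lower. Their median log2 fold change was 0.19. DEGs numbered 3 higher (PLA2G4D, PTGIR and ALOXE3) and 2 lower (AKR1C3 and PTGR2), against 9.41% and 4.16% of all tested genes. Of these, PLA2G4D, PTGIR, ALOXE3 and PTGR2 passed the low-count filter only through the group where they were high, so none of these counts, nor the median, carries weight for the pathway. With at least 1 CPM required in every library they were 0 higher and 1 lower.

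Among the receptors, PTGIR, the prostacyclin receptor, had 23, 8 and 16 reads in shNC and 64, 57 and 53 in shNUF2, a log2 fold change of 2.07 (SE 0.32). It passed the filter only through shNUF2, so its p is not given. TBXA2R, the thromboxane receptor and the most abundant of this group at 3.84 FPKM in shNC and 5.10 FPKM in shNUF2, rose with a log2 fold change of 0.45 (SE 0.13, adjusted p = 0.00406). The other 5 receptor genes were too low to test.

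Among the phospholipases, PLA2G4D had 1, 0 and 2 reads in shNC and 30, 24 and 37 in shNUF2. The summed 91 against 3 reads, scaled for depth, gave a ratio of 34.6 with an exact 95% counting interval of 11.5 to 171. PLA2G6, the calcium-independent phospholipase and the most abundant of the further phospholipases, had 1.44 FPKM in shNC and 1.33 FPKM in shNUF2, with a log2 fold change of -0.06 (SE 0.13, edgeR adjusted p = 0.683).

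Among the synthases of other prostanoids, AKR1C3, which makes prostaglandin F2 from prostaglandin D2 and also reduces steroids, fell. It had 3072, 3487 and 3614 reads in shNC and 1133, 1156 and 1379 in shNUF2, a log2 fold change of -1.28 (SE 0.05, edgeR adjusted p = 2.49e-18). Its related AKR1C paralogs could share some of these reads, which was not tested. AKR1B1, an aldose reductase with prostaglandin F synthase activity and the most abundant of the group, had 174 and 160 FPKM, with a log2 fold change of -0.08 (SE 0.04, adjusted p = 0.0619).

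Of the breakdown genes, PTGR2 had 32, 43 and 29 reads in shNC and 9, 7 and 12 in shNUF2, a log2 fold change of -1.70 (SE 0.37). Its p is left out too, since it passed the filter only through shNC. PTGR1, the most abundant of these reductases at 16.2 and 12.98 FPKM, fell, with a log2 fold change of -0.29 (SE 0.07, adjusted p = 3.68e-04). Of the transporters, ABCC4, an exporter of prostaglandin E2, fell from 5.15 to 3.73 FPKM, with a log2 fold change of -0.43 (SE 0.08, adjusted p = 1.64e-05).

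On the lipoxygenase side, ALOXE3, an epidermal lipoxygenase, had 12, 8 and 14 reads in shNC and 96, 90 and 93 in shNUF2, a log2 fold change of 3.22 (SE 0.28), with no p given because it passed the filter only through shNUF2. LTA4H, which makes leukotriene B4 and was the most abundant of this group, had 12.9 FPKM in shNC and 15.4 FPKM in shNUF2, with a log2 fold change of 0.29 (SE 0.05, adjusted p = 1.58e-05). LTC4S, the leukotriene C4 synthase, had few reads, with 36, 31 and 30 in shNC and 17, 9 and 24 in shNUF2. It was lower only at the edge of the threshold, with a log2 fold change of -0.78 (SE 0.35, edgeR adjusted p = 0.0499).

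**Figure D4:**
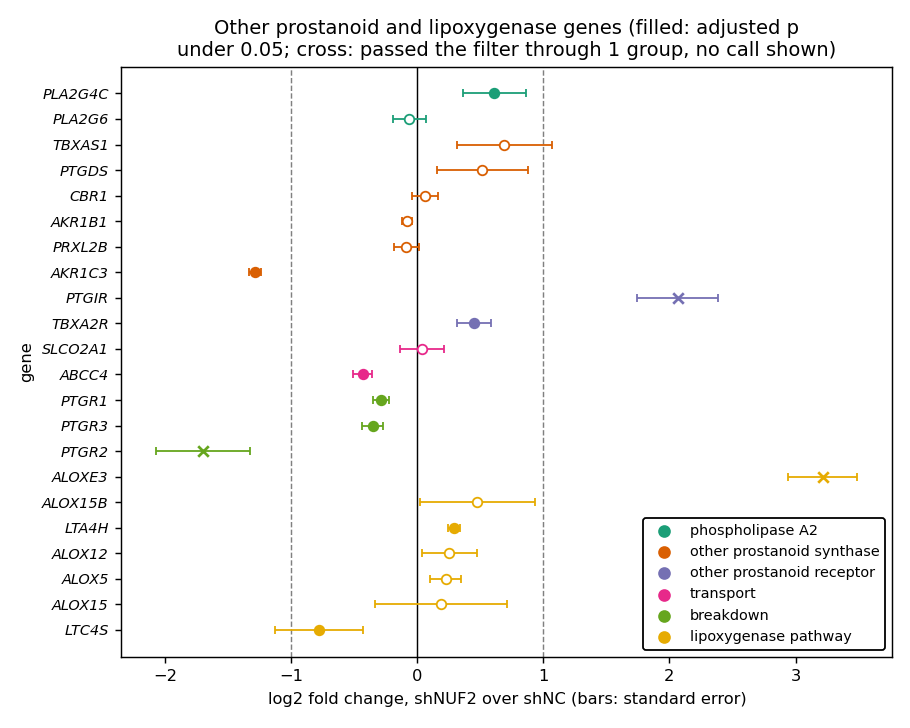
Log2 fold change of shNUF2 over shNC for the tested further genes of the eicosanoid pathway, coloured by role, with bars of 1 SE from the edgeR fit, filled points for an adjusted p below 0.05, and crosses, with no call, for PTGIR, PTGR2 and ALOXE3, which passed the low-count filter through 1 group only. Dashed lines stand at -1 and 1, and PLA2G4D is left out because shNC had 3 reads in all. ALOXE3 and PTGIR lie above 1 and AKR1C3 and PTGR2 below -1.

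The genes whose levels over the 6 libraries followed PTGS2 and PTGER4 most closely were sought among 11776 tested genes, by the root mean square difference of log2 CPM, each gene taken relative to its own shNC mean. With 2 groups this measure rests mostly on the fold change, so similar fold changes follow from the search itself. Shared control of these genes was not tested. Nearest to PTGS2 were SERPINE2, a secreted protease inhibitor, at 0.0357, ZBTB43, a zinc finger protein, at 0.0460 and CCDC80 at 0.0485, with log2 fold changes of 1.89, 1.92 and 1.94. Nearest to PTGER4 were PPP1R14C, a protein phosphatase inhibitor, at 0.118, FOSL1, a subunit of the AP-1 transcription factor, at 0.136 and GEM, a small GTP-binding protein, at 0.136, with log2 fold changes of 2.43, 2.32 and 2.53.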

How the data were processed

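RNA from 6 OVCAR3 libraries, 3 shNC and 3 shNUF2, was sequenced after TRIzol extraction and a stranded poly(A) library kit. Per the labels, the authors used cutadapt, HISAT and HTSeq with GRCh38.p13, without versions or a strand setting. The deposited read counts are raw and whole. The deposited FPKM equal the counts divided by the deposited length of each gene and library total.

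Counts were filtered with filterByExpr, scaled by TMM and tested with edgeR 4.0.16 (quasi-likelihood, no covariate, Benjamini-Hochberg over 12874 genes) in R 4.3.3. The SE is the log2 fold change over the root of the F statistic. CPM are TMM-scaled. The script was tested on simulated data as a check of the code only. Far fewer genes were changed there than passed here, and none of the changed ones had low counts. Read ratios were compared by exact permutation tests over libraries. Motifs were searched in RefSeq windows of 300 bases. Other scalings, filters, DESeq2 1.42.0, limma 3.58.1 on log2(FPKM + 1) and log2(FPKM + 0.1), a replicate block and leaving out each library were tried.

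The text names all 9 genes, NUF2, the further pathway genes past the DEG thresholds or most abundant in their role, and the 3 nearest genes to PTGS2 and PTGER4. TTC33, which overlaps PTGER4, LTC4S and the single marker genes were added after their values were seen. The genes and lists were chosen with earlier results of these data known.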

Additional observations from a re-analysis of the deposited data

How the results depend on the processing

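Of 270 recomputed values 254 stayed the same by a rule that asks of a gene or ratio its direction and its side of the significance threshold, and of a count that it lie within 1.5 times. The read ratios, which cannot go below p = 0.10 by the exact permutation test, could change only in direction, and PTGER2, mostly without a test, was held to its counting interval. The rule leaves out the fold threshold, which HPGD missed in both limma fits, and the count of the 9 genes that were DEGs with higher levels ran from 3 to 5. PTGES3 changed sign, to -0.0312 with library totals only, -0.0311 with limma on log2(FPKM + 1), -0.0313 with limma on log2(FPKM + 0.1), -0.0209 with no low-count filter and -0.0013 with upper quartile scaling, and it ran from -0.0261 to 0.0360 with 1 library left out. With at least 1 CPM in every library required, which tests fewer genes, DEGs among the further pathway genes numbered 0 higher and 1 lower, and 756 of all genes were higher. With limma on log2(FPKM + 1), which compresses low levels, they numbered 1 higher and 1 lower, and 430 higher and 206 lower of all genes, against 1212 and 536 in the edgeR fit. With no filter 5 further genes were higher. Leaving out each library gave 4 of the 9 genes as DEGs with higher levels each time, with log2 fold changes of 1.85 to 2.01 for PTGS2, 1.195 to 1.31 for PTGS1, 2.27 to 2.51 for PTGER4, 1.06 to 1.64 for HPGD and -0.89 to -0.83 for PTGES. HPGD could not be tested with at least 1 CPM in every library. PTGER2 entered the fit only with no filter, at a log2 fold change of 3.73 (SE 1.03). Its p is not given, because shNC had almost no reads, and the count of 5 above includes it. Same-numbered libraries did not deviate together (correlations of 0.02, 0.0046 and -0.03), so the replicate numbers were not taken as pairs. The replicate block gave 4 genes higher and 0 lower, PTGS2 at 1.91 and 1207 of all genes higher. Depth limits PTGER2, HPGD, PLA2G4D, PTGR2 and LTC4S, which had at most 43 reads in any library.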
